A study of Homo sapiens with 30 samples.

Results

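The comparison concerned chromatin that was accessible in RWPE1 prostate cells with and without the transcription factor ERG. Accessibility was measured by ATAC-seq, in which a transposase cuts DNA that is not wrapped around nucleosomes, so that regulatory DNA appears as a peak of fragments. The series holds 30 samples, among them 1 ATAC library for each of 4 lines and 3 RNA-seq libraries per line. RWPE1 is an established line of normal prostate epithelium, and all lines were transduced with retroviruses and kept under drug selection. RWPE1-Vector cells carried the empty pQCXIH and pBabe-puro vectors. RWPE1-ERG cells carried pQCXIH-ERG (UniProt isoform 1) and empty pBabe-Puro, although the labels' treatment protocol names pLHCX as the ERG vector. RWPE1+mAKT cells carried empty pQCXIH and Myr-AKT, an AKT held at the membrane and thereby active, and RWPE1-ERG+mAKT cells carried both genes. ERG thus came from a retroviral vector in a pool of selected cells and not from the TMPRSS2 rearrangement of prostate tumors.

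The peak list used for the cells without ERG is named RWPE1 in the deposit, and its peaks carry that name, but it is attached to the label of another sample, an ERG ChIP of VCaP cells treated with LY294002. The sample labelled RWPE1-Vector ATAC has no peak list of its own among the files. The list is called the RWPE1 list here and was taken as the vector list by its names alone. Its content was that of open chromatin in RWPE1 cells, since 85.97% of its 33000 strongest peaks overlapped the 33000 strongest of RWPE1+mAKT cells. Of the same peaks, 2.43% overlapped a peak of ERG ChIP in untreated VCaP cells. The VCaP list held only 6142 peaks, which limits that share, so the 2 shares cannot be compared. Neither share can tell vector cells from RWPE1 cells without a vector.

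The RWPE1-ERG list held 63354 peaks and the RWPE1 list 55889, which makes 119243 of the 219323 open regions in the 4 ATAC lists. The regions compared were the 33000 peaks of each list with the lowest p-values, 66000 regions in all. A top RWPE1-ERG peak that overlapped no RWPE1 peak of any rank by even 1 bp was called an ERG-only site, and 3719 of 33000 peaks were of this kind (11.3%). An RWPE1-only site was defined the other way round, and 1757 of 33000 peaks qualified (5.32%). A shared site was a top RWPE1-ERG peak that overlapped a top RWPE1 peak, and there were 25715. Each line had 1 library, so no difference between the lines could be tested, and every interval given is a 95% Wilson interval that covers counting error only.

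ERG is a member of the ETS family, whose proteins recognize short DNA sequences built around GGAA. It is normally made in endothelial and some blood cells, and a gene fusion switches it on in many prostate tumors. ETS proteins often sit beside AP-1, the dimer of FOS and JUN proteins that the RAS/ERK pathway activates. Other factors of epithelial enhancers are TEAD proteins, which act with the coactivator YAP, KLF proteins, which bind GC-rich CACCC boxes, RUNX proteins, and p63, the p53-family protein that marks basal cells.

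The sequences at the centres of 8 such sites are shown because these sites were named by p-value, by number or by the expression of the nearest gene, and hold a sequence of the kinds counted. All are the + strand of GRCh37 (hg19), read 5′ to 3′ over 201 bp. Capitals mark an ETS sequence (CAGGAAGT, CCGGAAGT or GGAAGTGA), an AP-1 sequence (TGAGTCA or TGACTCA), the KLF sequence GGGTGTG or a p53-family element, on either strand. A match describes the letters and is not evidence of binding. The 4 ERG-only sites came first. LINC01507, an uncharacterized long noncoding RNA, had an ERG-only site at chr9:82589830-82590030, and the noncoding RNA LOC101927421 had one at chr5:124429578-124429778. SDCBP2, which encodes the scaffold protein syntenin-2, had an intronic site at chr20:1303590-1303790, and a site 3810 bp outside the kinase gene CDK18 was at chr1:205469539-205469739.
LINC01507, ERG-only: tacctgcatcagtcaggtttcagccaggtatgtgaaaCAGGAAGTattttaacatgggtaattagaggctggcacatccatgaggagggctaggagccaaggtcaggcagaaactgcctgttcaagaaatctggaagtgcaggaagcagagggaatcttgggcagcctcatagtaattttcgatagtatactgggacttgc
LOC101927421, ERG-only: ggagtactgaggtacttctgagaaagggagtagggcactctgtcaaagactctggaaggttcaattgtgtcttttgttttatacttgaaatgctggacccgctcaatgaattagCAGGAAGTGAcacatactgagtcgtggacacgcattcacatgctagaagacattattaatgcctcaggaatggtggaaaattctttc
SDCBP2, ERG-only: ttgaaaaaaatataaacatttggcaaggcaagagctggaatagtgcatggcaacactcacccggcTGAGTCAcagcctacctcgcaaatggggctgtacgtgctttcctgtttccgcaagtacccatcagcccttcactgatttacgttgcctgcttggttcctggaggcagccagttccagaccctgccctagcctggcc
CDK18, ERG-only: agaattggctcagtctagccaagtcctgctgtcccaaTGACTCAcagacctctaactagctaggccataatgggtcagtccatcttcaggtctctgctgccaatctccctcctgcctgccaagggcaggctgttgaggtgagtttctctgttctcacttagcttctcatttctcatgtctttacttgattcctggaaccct

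The 4 RWPE1-only sites followed. COBL, the gene of an actin nucleator, had 1 of its RWPE1-only sites 59606 bp away at chr7:51444276-51444476. Introns of PTGES (prostaglandin E synthase) and PIK3R1 (a regulatory subunit of PI3K) held sites at chr9:132512503-132512703 and chr5:67573264-67573464. The site nearest to DEPDC1B, 17835 bp away, was at chr5:60014051-60014251 and held the p53-family element.
COBL, RWPE1-only: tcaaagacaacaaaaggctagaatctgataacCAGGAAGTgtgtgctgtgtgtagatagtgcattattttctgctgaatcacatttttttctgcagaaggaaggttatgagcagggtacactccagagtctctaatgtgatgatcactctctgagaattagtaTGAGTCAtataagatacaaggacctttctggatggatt
PTGES, RWPE1-only: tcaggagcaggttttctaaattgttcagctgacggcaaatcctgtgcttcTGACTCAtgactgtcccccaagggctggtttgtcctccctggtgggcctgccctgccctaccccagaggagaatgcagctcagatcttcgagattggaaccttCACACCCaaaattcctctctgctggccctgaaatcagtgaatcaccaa
PIK3R1, RWPE1-only: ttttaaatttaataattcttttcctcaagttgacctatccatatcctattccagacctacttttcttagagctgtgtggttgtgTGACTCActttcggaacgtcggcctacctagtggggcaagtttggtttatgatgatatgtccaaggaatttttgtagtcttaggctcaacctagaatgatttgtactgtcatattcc
DEPDC1B, RWPE1-only: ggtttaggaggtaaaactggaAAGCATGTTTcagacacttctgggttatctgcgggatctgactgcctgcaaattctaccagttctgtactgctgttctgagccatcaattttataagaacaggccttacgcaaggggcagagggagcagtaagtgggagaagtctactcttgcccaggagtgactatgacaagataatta

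Most open chromatin was common to both lines, and the shares that differed were in the weaker peaks. Of the 33000 strongest RWPE1-ERG peaks, 77.9% (77.5 to 78.4) overlapped one of the 33000 strongest RWPE1 peaks, and the share in the other direction was 77.95%. When the other list was searched at any rank, the shares rose to 88.7% of RWPE1-ERG peaks and 94.7% of RWPE1 peaks. Thus 3566 of the top RWPE1-ERG peaks and 5518 of the top RWPE1 peaks had a partner that ranked below 33000. Among the 4 lines the closest pair was RWPE1 and RWPE1+mAKT, where 86.0% of RWPE1 peaks overlapped. RWPE1-ERG peaks overlapped RWPE1+mAKT in 76.05% and RWPE1-ERG+mAKT in 74.1%. The RWPE1-ERG+mAKT list was the shortest, with 42081 peaks. Its peak of rank 33000 had a −log10 p of 8.16, against 13.7 in RWPE1+mAKT and 20.3 in RWPE1-ERG. How this bears on the overlap was not tested, so whether lines that share ERG are closer cannot be read from these shares.

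The number of unmatched peaks rose steadily with rank. Among the 3000 RWPE1-ERG peaks with the lowest p, 9 (0.3%) had no RWPE1 peak, against 817 (27.2%) of ranks 30001 to 33000. In the RWPE1 list the same bins held 0 and 495 peaks (16.5%) without a partner. A count of 0 in 3000 leaves room for a share of up to 0.128%. The RWPE1-ERG list was the larger in unmatched peaks in each of the 11 bins, as the plot of unmatched peaks by rank shows. The lists differ in how deep they reach: the peak of rank 33000 had a −log10 p of 20.3 in RWPE1-ERG and 14.8 in RWPE1, and the median fold enrichment of the top peaks over their local background was 8.57 and 7.805. Sequencing depth, cells recovered and ERG itself cannot be told apart as sources of this difference, because the number of fragments is recorded for neither library.

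**Figure D1:**
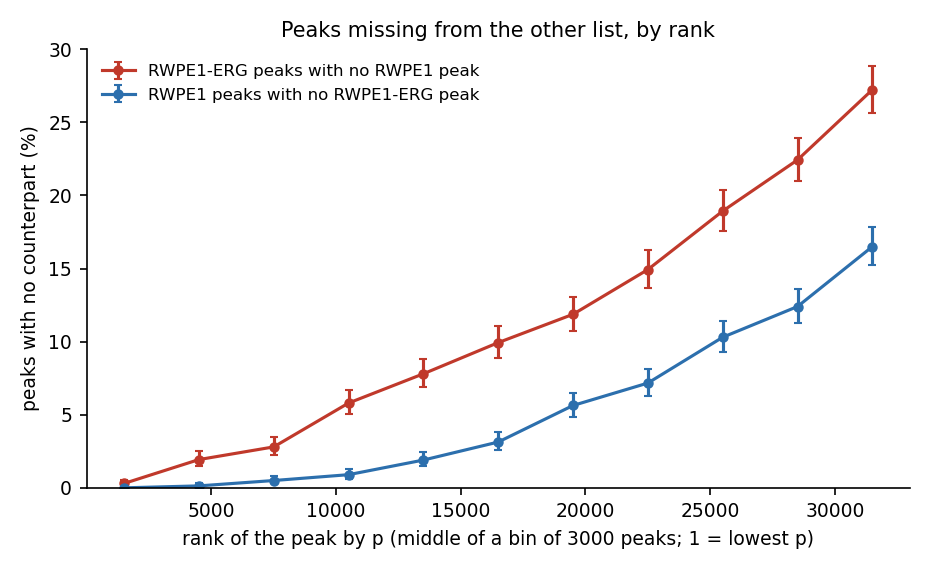
Peaks of each list with no peak of any rank in the other, as a percentage of bins of 3000 peaks ordered by p-value, with 95% Wilson intervals as bars. Both curves rise with rank, to 27.2% for RWPE1-ERG and 16.5% for RWPE1 in the last bin, and the RWPE1-ERG curve lies above the RWPE1 curve in each bin.

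Fold enrichment at shared sites was close in both lines, which the choice of peaks strong in both lists favors. Of the shared peaks, 25597 could be matched 1 to 1, and the median log2 ratio of fold enrichment, RWPE1-ERG over RWPE1, was 0.05, with 90% of peaks between −0.36 and 0.50. Of these peaks 25 were at least 2-fold higher in RWPE1-ERG and 12 at least 2-fold lower. At promoters the median was 0.01 and in introns 0.08. Peaks away from promoters that hold an ETS sequence had a median of 0.09 (823 peaks) and those without one 0.08 (16974 peaks), a gap that is small beside the spread of either group.

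The ERG-only sites were distal, narrow and AT-richer than shared sites. Their median width was 417 bp, against 324 bp for RWPE1-only and 645 bp for shared sites, and their median fold enrichment was 8.51, 7.11 and 8.66 in the same order. The median GC content of the central 201 bp was 47.3% at ERG-only, 48.3% at RWPE1-only and 56.7% at shared sites. Promoters, meaning the 1 kb before and after a protein-coding gene's start, held 39 ERG-only sites (1.05%) and 51 RWPE1-only sites (2.90%), whereas 30.5% of shared sites were promoters. Introns held 47.1% of ERG-only, 44.4% of RWPE1-only and 31.4% of shared sites. The nearest gene was more than 100 kb away for 14.2% of ERG-only sites, for 10.4% of RWPE1-only sites and for 6.3% of shared sites. Shared sites also include the strongest peaks. RWPE1-ERG peaks whose RWPE1 partner ranked below 33000, which were about as weak as ERG-only sites (median ranks 24700 and 25162), lay at promoters in 5.58% of cases.

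ERG-only sites were spread over the genome. By chromosome the share of RWPE1-ERG peaks that were ERG-only ran from 4.33% on chromosome 19 to 14.7% on chromosome 18, and for RWPE1-only sites it ran from 2.72% on chromosome 22 to 8.23% on chromosome 13. In windows of 1 Mb, 90 held 5 or more ERG-only sites (516 sites), and the fullest held 11. The classes differ in number, 3719 and 1757, and whether they differ in bunching was not tested.

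ERG-only and RWPE1-only sites differed in the other ATAC libraries, which took no part in choosing them. Of the RWPE1-only sites, 87.9% (86.3 to 89.4) were open in RWPE1+mAKT cells, where ERG is absent, and 37.3% (35.1 to 39.6) in RWPE1-ERG+mAKT cells. With sites taken from all deposited peaks the first share was 57.69%. Of the ERG-only sites, 17.1% (15.9 to 18.4) were open in RWPE1-ERG+mAKT cells and 22.9% (21.5 to 24.2) in RWPE1+mAKT cells. Shared sites were open in 98.9% of cases in RWPE1+mAKT and in 91.9% in RWPE1-ERG+mAKT. RWPE1-only sites were therefore mostly seen again in the other line without ERG, while the second line with ERG showed fewer of the ERG-only sites than the line with mAKT alone. The RWPE1-ERG+mAKT list is shorter, with 42081 peaks against 57999, and when both were held to 33000 peaks the order for ERG-only sites turned, with 13.0% in RWPE1-ERG+mAKT and 7.37% in RWPE1+mAKT. The RWPE1-only sites kept their order at that limit, with 64.7% in RWPE1+mAKT and 30.3% in RWPE1-ERG+mAKT.

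The shares were much the same among weak peaks alone. Past the first 20000 ranks, ERG-only sites were open in RWPE1-ERG+mAKT in 17.5% (2635 sites), RWPE1-only sites in RWPE1+mAKT in 86.35% (1451 sites), and shared sites in 84.8% and 97.8% of 7936 sites. Taken by pattern, 2555 ERG-only sites (68.7%) appeared in neither other list, 528 in RWPE1+mAKT only, 314 (8.44%) in RWPE1-ERG+mAKT only and 322 in both. Of the RWPE1-only sites, 915 (52.1%) appeared in RWPE1+mAKT only, 630 (35.9%) in both, 187 in neither and 25 in RWPE1-ERG+mAKT only. The 314 sites and the 915 sites are those open in both libraries with ERG and neither without, and in both without ERG and neither with it.

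**Figure D2:**
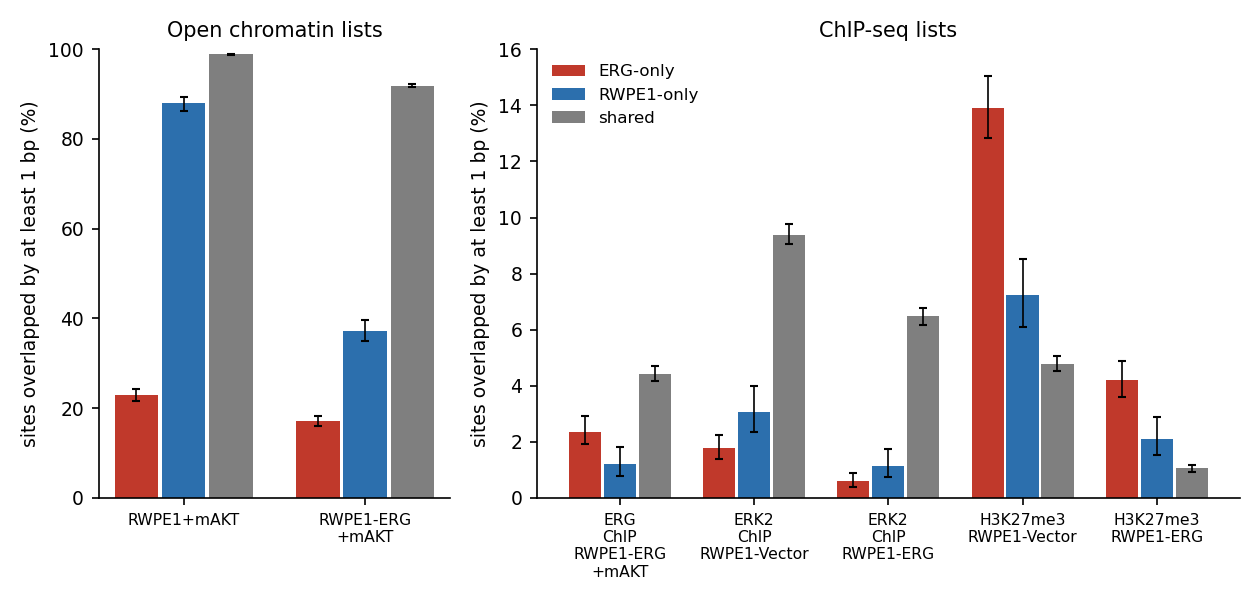
Share of ERG-only, RWPE1-only and shared sites that overlapped a peak of other deposited lists, with 95% Wilson intervals: the other ATAC lists on the left (0 to 100%) and the ChIP-seq lists on the right (0 to 16%). RWPE1-only sites were open in 87.9% of cases in RWPE1+mAKT cells, and ERG-only sites had the highest share under H3K27me3 peaks, at 13.9% in RWPE1-Vector cells.

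Few sites of either kind coincided with the factor peaks of the series. ERG ChIP peaks of RWPE1-ERG+mAKT cells (9113 peaks) overlapped 88 ERG-only sites (2.37%, 1.93 to 2.91) and 21 RWPE1-only sites (1.20%, 0.783 to 1.82), against 4.43% of shared sites. In VCaP cells, which make ERG from a fusion gene, ERG peaks overlapped 55 ERG-only sites (1.48%) and 4 RWPE1-only sites (0.228%), against 2.86% of shared sites. ERG-only sites were thus above RWPE1-only sites and below shared sites in both ERG lists. For ERK2 the ERG-only sites were lowest, at 0.592% against 1.14% of RWPE1-only and 6.475% of shared sites in RWPE1-ERG cells, and at 1.775%, 3.07% and 9.39% in RWPE1-Vector cells. The ERK2 lists held 5721 peaks in RWPE1-ERG and 41276 in RWPE1-Vector cells, so no change of ERK2 between the lines can be read from these shares. ERG binding in RWPE1-ERG cells themselves was not analysed here.

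H3K27me3, the repressive histone mark laid down by the Polycomb complex PRC2, was more frequent at ERG-only sites than at RWPE1-only or shared sites. In RWPE1-Vector cells, H3K27me3 peaks overlapped 517 ERG-only sites (13.9%, 12.8 to 15.05), 127 RWPE1-only sites (7.23%, 6.11 to 8.54) and 4.79% of shared sites. That list held 492265 peaks over 241.7 Mb. The share of DNA at large that such peaks would overlap was not computed. The values therefore compare the 3 classes with each other and do not show that ERG-only sites are enriched for the mark. In RWPE1-ERG cells they overlapped 156 ERG-only sites (4.195%), 37 RWPE1-only sites (2.11%) and 1.05% of shared sites. At sites more than 1 kb from a gene start the shares in vector cells were 13.8% (12.7 to 14.96), 6.975% (5.86 to 8.28) and 6.045% (5.705 to 6.40), the last 2 with overlapping intervals. RWPE1-ERG peaks whose RWPE1 partner ranked below 33000 had a share of 11.27% (10.28 to 12.35), so a high share was also found at weak RWPE1-ERG peaks that have a partner. The shares fell between the lines in all 3 classes, and so did the lists, from 241.7 Mb covered in vector cells to 138.4 Mb in RWPE1-ERG cells, so no change of the mark at ERG-only sites in particular can be read from them.

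ETS sequences were more frequent at ERG-only sites than at RWPE1-only sites. Sequences were counted in the central 201 bp on both strands, at sites more than 1 kb from a gene start, so that promoters did not weigh on the comparison. Any of the 3 ETS sequences occurred at 238 of 3680 ERG-only sites (6.47%, 5.72 to 7.31), at 43 of 1706 RWPE1-only sites (2.52%, 1.88 to 3.38) and at 4.61% (4.32 to 4.93) of 17883 shared sites. Windows 1 kb to either side of the same sites held one in 1.90%, 2.141% and 2.18% of cases. RWPE1-only sites were thus near the level of their flanks. CAGGAAGT, as in the LINC01507 site printed above, occurred at 4.375% of ERG-only, 1.17% of RWPE1-only and 2.49% of shared sites. GGAAGTGA overlaps it where the letters run together, as in the LOC101927421 site, and such a window was counted once among the 3.

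AP-1 sequences were frequent in all classes. TGAGTCA or TGACTCA occurred at 21.4% of ERG-only sites, 24.5% of RWPE1-only sites and 20.9% of shared sites, against 2.96%, 2.73% and 3.03% in the flanks. The interval of RWPE1-only sites (22.5 to 26.6) lay above that of shared sites (20.3 to 21.5) and touched that of ERG-only sites (20.1 to 22.7). AP-1 sequences were thus about as common at the sites of 1 line as at shared distal sites.

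KLF, TEAD, RUNX and p53-family sequences were more frequent at RWPE1-only than at ERG-only sites. The KLF sequence GGGTGTG occurred at 12.7% (11.2 to 14.3) of RWPE1-only sites, 4.89% (4.24 to 5.64) of ERG-only sites and 7.31% of shared sites, with flanks between 4.145% and 4.73%. The TEAD sequence CATTCC occurred at 24.3% of RWPE1-only, 17.3% of ERG-only and 16.9% of shared sites, with flanks between 10.3% and 11.2%. The TEAD difference depended on the peaks taken. With sites from all deposited peaks, the central window held it at 16.9% of RWPE1-only and 15.8% of ERG-only sites. Over the whole peak, those larger sets of sites had 26.35% and 27.03%. For the RWPE1-only and ERG-only sites as defined above, with promoters included, the whole-peak shares were 35.86% and 31.76%. For RUNX (TGTGGTT), again in the central window, the shares were 7.97% of RWPE1-only, 5.52% of ERG-only and 4.85% of shared sites. The p53-family element, which p63 also recognizes, was at 4.28%, 2.39% and 2.73%. FOX (TGTTTAC) was at 3.22% (2.485 to 4.17) of RWPE1-only, 4.29% (3.685 to 5.00) of ERG-only and 2.86% of shared sites, and the first 2 intervals overlap. CTCF sequences were rare at ERG-only sites (0.435%) beside RWPE1-only (1.35%) and shared sites (1.85%).

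These differences were also present among weak peaks compared with weak peaks. Past the first 20000 ranks, ETS sequences were at 6.91% of ERG-only, 2.76% of RWPE1-only and 4.165% of shared sites, and KLF sequences at 5.22%, 12.1% and 7.33%. The comparison with shared sites differed over the whole peak with promoters included, where ETS was at 11.9% of ERG-only, 5.635% of RWPE1-only and 15.9% of shared sites. Whole peaks differ in the length searched, with median widths of 417, 324 and 645 bp in that order, and shared sites hold more promoters. The part of each in these shares was not tested. KLF over the whole peak was at 10.8%, 19.35% and 20.5%. The order of ERG-only against RWPE1-only sites was the same in each count for both sequences.

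**Figure D3:**
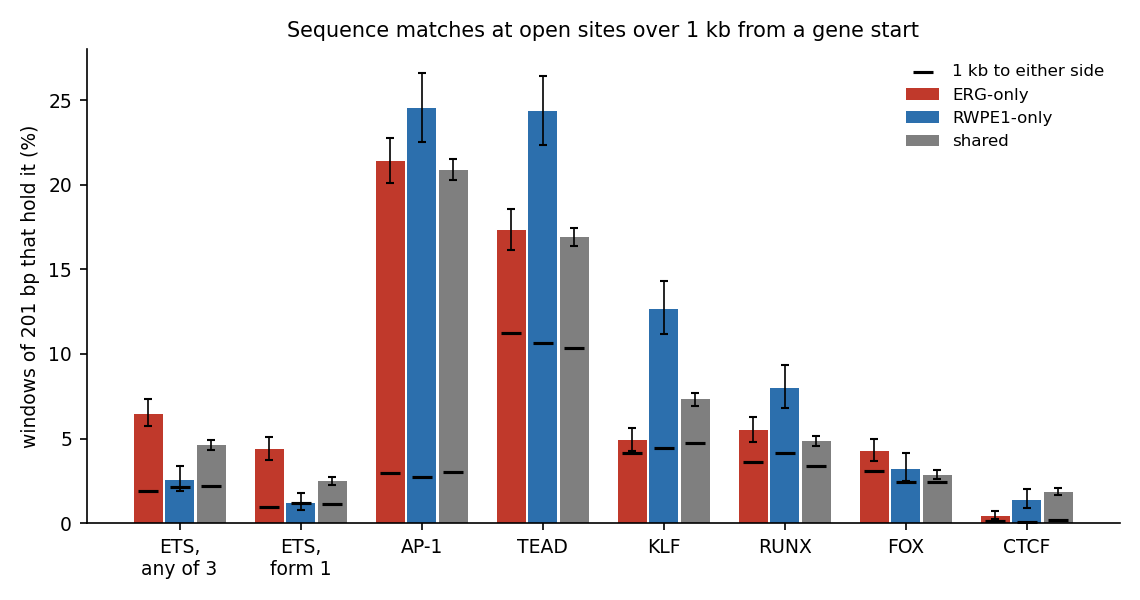
Share of ERG-only, RWPE1-only and shared sites more than 1 kb from a gene start whose central 201 bp hold each sequence, with 95% Wilson intervals; short black lines mark the share in windows 1 kb to either side. ETS sequences were at 6.47% of ERG-only and 2.52% of RWPE1-only sites, and KLF sequences at 4.89% and 12.7%.

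The ETS and KLF contrast was wider at the sites open in both libraries of one kind and neither of the other. Of the 314 ERG-only sites also open in RWPE1-ERG+mAKT alone, 39 held an ETS sequence (12.4%, 9.22 to 16.5), 26 held CAGGAAGT (8.28%), 106 held an AP-1 sequence (33.8%) and 6 held the KLF sequence (1.91%). Of the 915 RWPE1-only sites also open in RWPE1+mAKT alone, 19 held an ETS sequence (2.08%, 1.33 to 3.22), 194 an AP-1 sequence (21.2%) and 138 the KLF sequence (15.1%, 12.9 to 17.55). The AP-1 share was as high, at 35.4%, among the 322 ERG-only sites open in both mAKT lines, and 26.1% among the 528 open in RWPE1+mAKT only. Of the 2555 ERG-only sites seen in no other list, 6.07% held an ETS sequence and 16.9% an AP-1 sequence.

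The ERG gene itself was among the ERG-only sites, at a single exon. ERG had an FPKM of 0.264 in RWPE1-Vector and 357.6 in RWPE1-ERG, each pooled by the authors over 3 libraries, as the label of the line says. The site was chr21:39755339-39755835 (497 bp, rank 10570, fold enrichment 13.1), and it lay wholly inside the exon chr21:39755213-39755845. RWPE1-ERG+mAKT had a peak inside the same exon (chr21:39755381-39755816, fold enrichment 7.21), and neither line without ERG had one. The retroviral copy carries coding exons of ERG, so fragments from the provirus and from the gene on chromosome 21 cannot be told apart at this site. An intron of ERG held an RWPE1-only site at chr21:39858133-39858817 that was present in both mAKT lines. AKT1 had FPKM values of 58.7 and 64.2, and its single peak in the RWPE1-ERG list and its single peak in the RWPE1 list lay near the start of the gene.

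The strongest ERG-only sites were not found in any other library. The 10 with the lowest p lay at or nearest to PVT1, RFTN1, MIR378G, MRC2, NINL, LINC01507, ERCC4, CEMIP, ELAVL1 and UBXN6, with ranks from 1613 to 3052 and fold enrichments from 8.50 to 13.5. None of the 10 overlapped a peak of RWPE1+mAKT or RWPE1-ERG+mAKT, and 68.7% of all ERG-only sites were in neither list. RFTN1, the gene of the lipid raft protein raftlin, had a site of 696 bp in an intron and an FPKM of 3.28 in RWPE1-Vector and 6.455 in RWPE1-ERG. MRC2, an endocytic collagen receptor, had a site of 824 bp over an exon and FPKM values of 4.67 and 4.86. CEMIP, which takes part in hyaluronan breakdown, had one in an intron, with FPKM values of 0.129 and 0.109. None of the 10 genes changed 2-fold, beside 3.66% of all expressed genes higher and 0.994% lower. In the central window 0 of the 10 sites held an ETS or AP-1 sequence, beside 6.48% and 21.2% of all ERG-only sites.

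The strongest RWPE1-only sites behaved in the opposite way, with 10 of 10 open in RWPE1+mAKT and 9 of 10 in RWPE1-ERG+mAKT, beside 87.9% and 37.3% of all RWPE1-only sites. They lay at or nearest to LINC01588, GTF3C5, ATP2B4, ITPRIP, PDLIM4, DEPDC1B, APBB2, MIR378G, C6orf118 and LOC101927881, with ranks from 3110 to 6585. The site that was absent from RWPE1-ERG+mAKT was 24455 bp from ATP2B4, the gene of a plasma membrane calcium pump with FPKM values of 14.4 and 12.5. ITPRIP, whose product modulates the inositol trisphosphate receptor, had a site in an intron and FPKM values of 9.41 and 6.17. PDLIM4, an actin-associated LIM protein, had FPKM values of 40.1 and 57.8 with its site absent from RWPE1-ERG.

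Some genes collected many ERG-only sites, and most of these were silent in both lines. LINC01507 was nearest to 11 ERG-only sites between 82391451 and 83266349 on chromosome 9, with 3 shared sites, and its FPKM was listed at 0 in both lines. ISX, an intestinal homeobox gene, was nearest to 7 on chromosome 22 with 0 shared sites, and GRM7, a glutamate receptor gene, held 6 within its own span with 0 shared sites. None of the 13 sites at ISX and GRM7 was open in RWPE1+mAKT or RWPE1-ERG+mAKT, and both genes were listed at an FPKM of 0. CA10 was nearest to 6, of which 4 were open in RWPE1-ERG+mAKT and 1 in RWPE1+mAKT. C20orf196 was nearest to 7 and was the one gene of the 8 that reached an FPKM of 1, at 2.84 and 3.47. LOC101927421 and LINGO2 were nearest to 7 and 6. The 7 sites credited to HLA-DRB5 lay 479301 to 1755170 bp away, and the table places 228 genes on alternative copies of chromosome 6, so that nearer genes of that region may go unnamed.

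Among genes with RWPE1-only sites, COBL and LY86 were nearest to 5 each, BNC2, CACNA1C, EXT1 and SCARB1 to 4 each, and ADAMTS14 and ADCY8 to 3 each. EXT1, an enzyme of heparan sulfate synthesis, held its 4 within the gene, with FPKM values of 24.9 in RWPE1-Vector and 40.75 in RWPE1-ERG. SCARB1, the receptor for high-density lipoprotein, had FPKM values of 49.4 and 53.25. COBL had FPKM values of 2.615 and 6.33, so a gene with 5 RWPE1-only sites was higher in RWPE1-ERG. COBL also had 1 ERG-only site, in an intron.

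Genes nearest to ERG-only sites were not more often higher in RWPE1-ERG than genes nearest to shared sites. The table gives 1 pooled FPKM per line, so ratios are of FPKM + 1 for 12374 genes that reached an FPKM of 1 in either line, and in bulk RNA fewer cells of a type and less RNA per cell cannot be told apart. Of these genes, 453 (3.66%) were at least 2-fold higher in RWPE1-ERG and 123 (0.994%) at least 2-fold lower. The nearest gene was at least 2-fold higher for 39 of 1815 ERG-only sites (2.15%, 1.58 to 2.92), for 2.09% of shared sites and for 43 of 953 RWPE1-only sites (4.51%, 3.37 to 6.02). It was at least 2-fold lower for 0.937% of ERG-only sites, 0.768% of shared sites and 8 RWPE1-only sites (0.8395%, 0.426 to 1.65). With a pseudocount of 0.1 the shares were 3.802% of ERG-only sites at higher genes (4.99% of all genes) and 1.889% of RWPE1-only sites at lower genes (1.81% of all genes). At the pseudocount of 1, the share of ERG-only sites at higher genes was close to that of shared sites and below that of all expressed genes. The interval of RWPE1-only sites included the 3.66% of all expressed genes. Several sites can share a gene. By distinct genes the higher shares were 2.52% at ERG-only sites (1.83 to 3.47), 1.90% at shared sites and 35 of 841 at RWPE1-only sites (4.16%, 3.01 to 5.73).

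The same was seen from the side of the genes. Within 10 kb, 8.17% of all expressed genes, 22 of 453 higher genes (4.86%, 3.23 to 7.24) and 9 of 123 lower genes (7.32%, 3.90 to 13.3) had an ERG-only site as their own nearest-gene site. For RWPE1-only sites the shares were 4.77%, 5.74% and 4.88%. A shared site was assigned to 74.15% of all expressed genes, but to 36.2% of higher and 34.96% of lower genes. Each site was assigned to a single nearest gene, so a gene without an assigned site may still lie close to one. Whether shared open chromatin is less common around the genes that changed was not tested. The median log2 ratio was −0.02 for ERG-only sites within 10 kb, 0.03 for RWPE1-only sites and −0.02 for shared sites, against −0.01 for all expressed genes. At shared peaks within 10 kb the median log2 ratio of fold enrichment was 0.09 at higher genes, 0.07 at lower genes and 0.03 at the rest.

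**Figure D4:**
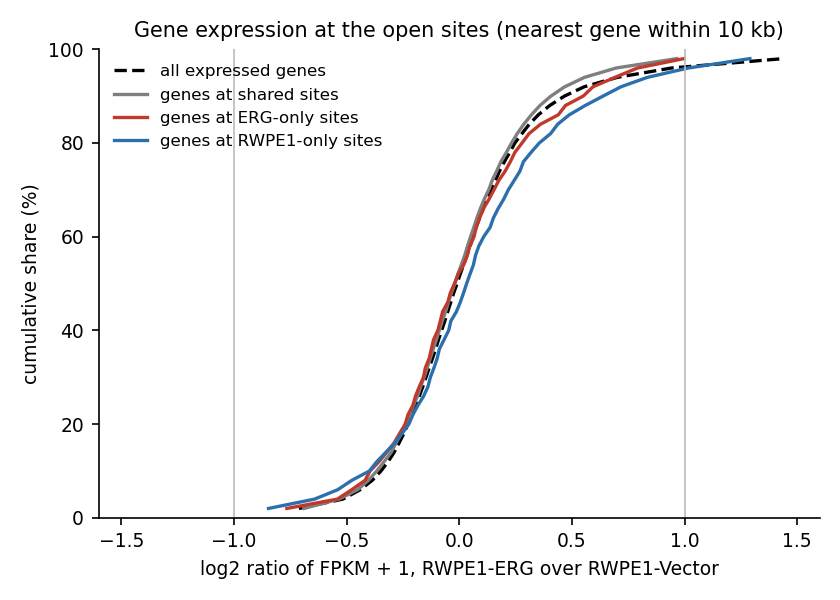
Cumulative share of genes or sites by the log2 ratio of FPKM + 1, RWPE1-ERG over RWPE1-Vector, for all expressed genes (dashed) and for the nearest gene within 10 kb of ERG-only, RWPE1-only and shared sites, from the 2nd to the 98th percentile; thin vertical lines mark a 2-fold change. The curve of ERG-only sites runs with that of shared sites, with medians of −0.02 each, and the curve of RWPE1-only sites lies to the right over most of its range, with a median of 0.03.

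Individual genes nevertheless combined a site and a change in the same direction. The 10 genes with an ERG-only site within 10 kb and the largest FPKM ratio were IGFL1, NNMT, SDCBP2, CCBE1, EPHB2, ZG16B, COBL, CDK18, LOXL2 and LIMCH1. IGFL1, a secreted protein of the insulin growth factor-like family, went from an FPKM of 1.97 in RWPE1-Vector to 44.5 in RWPE1-ERG. NNMT, which methylates nicotinamide, went from 12.75 to 67.1 (5.26-fold), with an intronic site of fold enrichment 9.54. IGFL1 stood far apart from the other 9 genes in its ratio, which was 22.5-fold. SDCBP2 went from 4.63 to 16.99, with the AP-1 sequence printed above in its intron. CCBE1, a secreted factor of lymphatic vessel growth, went from 4.99 to 15.3, and EPHB2, a receptor for ephrin-B ligands, from 2.01 to 5.78. The other 5 rose between 2.33-fold (LIMCH1) and 2.75-fold (ZG16B), among them LOXL2, a collagen-crosslinking oxidase with 2 ERG-only sites and FPKM values of 4.59 and 10.8. The site of ZG16B, a secreted lectin-like protein, was the only one of the 11 at a promoter. Of the 11 sites 0 were open in RWPE1-ERG+mAKT, 1 in RWPE1+mAKT, 3 held an AP-1 sequence and 0 an ETS sequence. Over all ERG-only sites the shares were 17.1%, 22.9%, 21.2% and 6.48% in the same order.

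The 10 genes with an RWPE1-only site and the largest FPKM ratio in the other direction were PTGES, LTBP1, ZBED2, AQP3, PIK3R1, SLCO4A1, IL20RB, CDR2L, GCLC and ABLIM1. PTGES, which makes prostaglandin E2, was at 19.4 in RWPE1-Vector and 4.51 in RWPE1-ERG. LTBP1, which holds latent TGF-beta in the matrix, was at 5.84 and 1.58, with 2 RWPE1-only sites and also 1 ERG-only site. ZBED2, a zinc finger protein, was at 19.5 and 5.67, and its RWPE1-only site of 1325 bp lay at its promoter with 0 shared sites for the gene. That pairing of an absent promoter peak and lower RNA was the only one among the 10 genes, and the site was open in both mAKT lines. AQP3, a water and glycerol channel, was at 11.8 and 4.97, PIK3R1 at 10.02 and 4.67, and IL20RB, a subunit of receptors for interleukins of the IL-20 family, at 57.6 and 29.15. Of the 11 sites 9 were open in RWPE1+mAKT, 5 in RWPE1-ERG+mAKT, and 6 held an AP-1 sequence, as printed above for PTGES and PIK3R1. Over all RWPE1-only sites the shares were 87.9%, 37.3% and 24.0% in the same order.

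**Figure D5:**
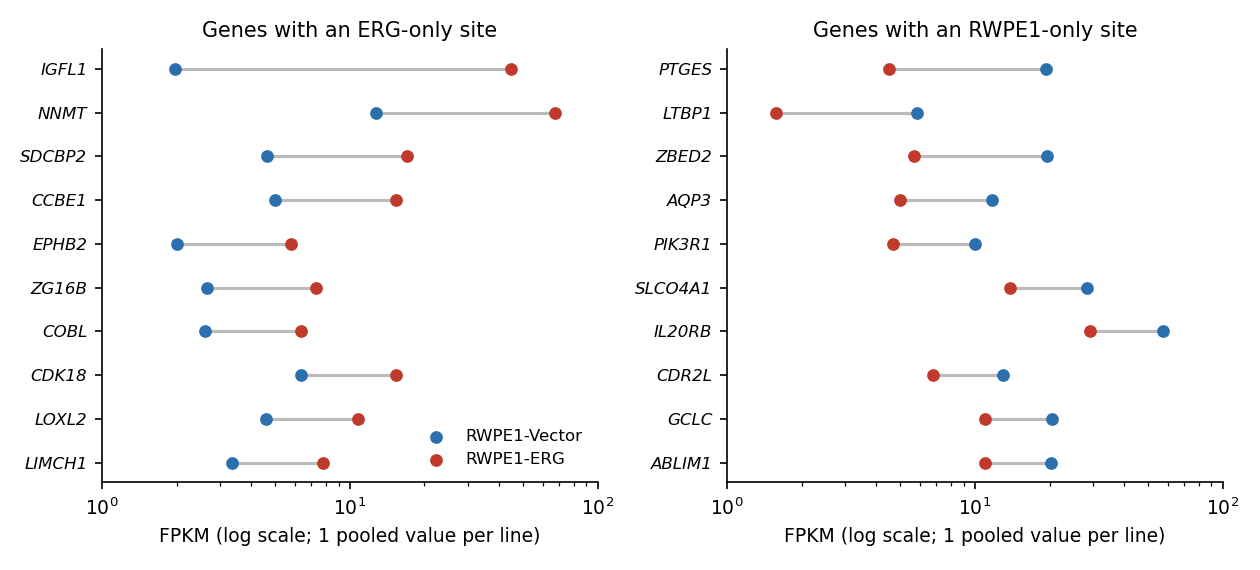
FPKM of the 10 genes per direction with an ERG-only site (left) or an RWPE1-only site (right) within 10 kb and the largest ratio, on a log axis, with 1 pooled value per line joined by a grey line. IGFL1 shows the widest gap on the left, from 1.97 to 44.5, and PTGES on the right, from 19.4 to 4.51; the genes were chosen for these ratios.

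Genes with a site and a change in opposite directions were also found, and the following were chosen after their values were seen. ERG-only sites lay at TIMP3, a protease inhibitor (5.14 to 1.05), CA12, a carbonic anhydrase (9.68 to 2.33), VCAN, a matrix proteoglycan (7.17 to 2.01), and NPTX2 (8.89 to 2.94), all lower in RWPE1-ERG. RWPE1-only sites lay at TRIML2 (2.51 to 17.2), MGLL, a lipase (7.67 to 33.7), SMOC1, a matrix protein (3.56 to 13.97), and TFPI, an inhibitor of coagulation (1.505 to 5.82), all higher.

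Basal and luminal keratins of the prostate epithelium were expressed in both lines, at different levels. Of 9 basal genes, all were expressed, and the median log2 ratio was −0.74, against −0.01 over all expressed genes. KRT5 was at 3126 and 1169.8, KRT14 at 2935.8 and 699.5, and TP63, the gene of p63, at 36.3 and 21.3. KRT15, another basal keratin, was higher, at 33.35 and 80.3. Of 9 luminal genes 5 were expressed, with a median of 1.17, and 3 were at least 2-fold higher, beside 3.66% of all expressed genes. These were KRT8 at 622.4 and 1769.3, KRT18 at 817.0 and 1843.2 and KRT19 at 367.0 and 956.1. The defining luminal gene KLK3 was listed at 0 in both lines. KRT5, KRT14 and TP63 had 17 shared sites between them and 0 sites of either other kind, so that no ERG-only or RWPE1-only site was assigned to these 3 genes. ITGA6, an integrin of basal cells, had 2 RWPE1-only sites and FPKM values of 125.0 and 70.9, while LAMB3, a laminin chain, had 1 ERG-only site and values of 115.0 and 221.9. KRT8 had an RWPE1-only site over an exon, although its FPKM was higher in RWPE1-ERG. Whether the shift of these markers bears on the lists of sites was not tested.

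ERK feedback genes, which dampen the RAS/ERK pathway and are switched on by it, were often the nearest gene to an ERG-only site, mostly from over 10 kb away. Of the 11, all expressed, 8 were nearest to at least 1 ERG-only site (9 sites), beside 11.5% of all expressed genes, and 2 were nearest to an RWPE1-only site, beside 6.8%. For shared sites the count was 9 of the 11 genes, beside 76.1% of all expressed genes. The 8 were DUSP5, DUSP6, SPRY1, SPRY2, SPRY4, SPRED1, SPRED2 and PHLDA1. Only the DUSP5 site, in an intron, was within 10 kb, and the others were 14686 to 240512 bp away. Within 10 kb, 8.17% of all expressed genes had an ERG-only site, so 1 of 11 is near that share. Of the 9 sites, 4 were open in RWPE1-ERG+mAKT (DUSP6, SPRY1, SPRY2 and SPRED1) and 3 in RWPE1+mAKT (SPRY1, SPRY4 and SPRED2). None of the 11 genes changed 2-fold, beside 3.66% of all expressed genes higher and 0.994% lower, and the median log2 ratio was −0.24. DUSP6, a phosphatase that inactivates ERK, was at 86.2 in RWPE1-Vector and 59.6 in RWPE1-ERG, PHLDA1 at 31.7 and 23.9, and SPRED2, an inhibitor of RAF activation, at 15.1 and 10.65. EGR1, an immediate early gene of the pathway with no such site, was at 24.3 and 37.6.

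Of the ETS and AP-1 genes, ERG and ELF3 were at least 2-fold higher and 0 were at least 2-fold lower. The genes of the TEAD, KLF and RUNX factors were in no list examined here. Of 16 ETS genes 15 were expressed, with a median log2 ratio of −0.11, and besides ERG only ELF3, an epithelial ETS factor, was at least 2-fold higher (2.26 and 5.81). ETS2 had an ERG-only site 9888 bp away that ranked 4831, with FPKM values of 22.2 and 19.85, and EHF had 2 ERG-only sites with 3.745 and 3.63. Of 9 AP-1 genes 8 were expressed and 0 changed 2-fold. Among all expressed genes 3.66% were at least 2-fold higher and 0.994% at least 2-fold lower, so little can be read from 0 of 8. FOSL1, the most abundant of them, was at 118.9 and 200.3, and JUN, with 2 ERG-only sites of which 1 held an ETS sequence, was at 44.8 and 39.2.

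Mesenchymal genes had a median log2 ratio of 0.48 among 8 expressed of 11, with 3 at least 2-fold higher, beside 3.66% of all expressed genes. SNAI2, a repressor of E-cadherin, was at 68.45 and 55.9. FN1, the gene of fibronectin, was at 83.7 and 227.8 with 0 assigned sites of any class. SPARC, a matrix glycoprotein, was at 31.6 and 67.5 with an ERG-only site in an intron that held an AP-1 sequence, and CDH2, N-cadherin, was at 3.04 and 7.38 with 2 RWPE1-only sites. TGFBI and ITGA5 each had 1 ERG-only site, the one at ITGA5 with an ETS sequence, and FPKM values of 171.3 and 233.6, and of 45.1 and 55.5. Among 10 proteases and regulators of migration, PLAT, a plasminogen activator, had an ERG-only site (6.89 and 11.2), and MMP14, a membrane-bound matrix protease, had one (54.65 and 85.2). Of 13 endothelial genes only EGFL7 was expressed (14.1 and 22.3, with an ERG-only site 27086 bp away), and the defining genes CDH5, PECAM1 and VWF were below 0.02 in both lines. Of 12 suprabasal and epidermal genes 7 were expressed, with a median of 0.08. Of these 1 was higher and 2 were lower by 2-fold, beside 3.66% and 0.994% of all expressed genes. S100A8 was at 3.64 and 1.598 with an ERG-only site 3958 bp away.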

How the data were processed

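Peak lists are the authors' deposited MACS2 output, with a pileup signal, a fold enrichment ratio over the local background, and −log10 p-values and q-values per peak. Per the methods, the authors made ATAC libraries with an ActiveMotif kit, aligned reads to hg19 with Bowtie2, removed duplicates with Picard and called broad peaks. ChIP-seq peaks were called against input. Only the RWPE1+mAKT list has a header (35688481 fragments), so the depth of the other ATAC libraries is unknown, and pileups were not compared as levels. Expression values are the authors' deposited Cuffdiff FPKM, pooled over 3 libraries per line, with 0 columns of single samples. The table's fold changes, p-values and q-values are the authors' own comparisons and were not used.

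Peaks were ranked by p, and those equal in p by fold enrichment. The nearest gene came from the table's locus column, narrowed to the GENCODE release 44 (GRCh37) span where the locus held several genes (20868 loci for 26253 genes). Promoters and exons came from protein-coding genes of GENCODE. Sequences came from the GRCh37 reference, within 100 bp of the peak centre. Also counted were GRHL (AACCGGTT), CREB (TGACGTCA), IRF, NF-kB and GGAAGGAAGGAA, at 0.108%, 0.3496%, 2.55%, 2.07% and 0.108% of ERG-only sites. Ratios are of FPKM plus a pseudocount of 1.

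The genes named are those nearest to the 10 sites per direction with the lowest p, the 8 nearest to most sites, members of the 9 marker lists, the 10 per direction with the largest FPKM ratio (at least 5 in the higher line, above 0.5 in the lower, site within 10 kb), ERG and AKT1. Sites, rules and lists were chosen with earlier results of these data known. Code was tested on simulated data. Analyses ran in Python 3.11.15 with pandas 2.3.3, numpy 2.4.6, pysam 0.24.0 and matplotlib 3.10.9. A few items are not reported here.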

Additional observations from a re-analysis of the deposited data

How the results depend on the processing

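Of 40 recomputed values, 14 were shares that moved by less than their interval or counts that moved by less than 1.5 times, and the other 26 follow. With all deposited peaks, the overlap was 72.89% of RWPE1-ERG and 82.65% of RWPE1 peaks, with 17174 ERG-only and 9699 RWPE1-only sites. With the 20000 strongest peaks it was 77.19% and 77.2%, with 1084 and 306 sites, and with an overlap of at least 50% of the peak it was 75.84% and 76.8%, with 4896 and 2400 sites. With the RWPE1+mAKT list in place of the RWPE1 list, chosen after seeing the data because of the sample label, it was 76.05% and 75.95%, with 3861 and 2655 sites. ERG-only sites open in RWPE1-ERG+mAKT were 13.87% from all peaks, 14.44% at an overlap of 50% and 14.37% for sites absent from the RWPE1+mAKT list. RWPE1-only sites open in RWPE1+mAKT were 57.69% from all peaks. ERG-only sites at higher genes were 3.802% with a pseudocount of 0.1 (all genes 4.99%), 1.049% with no FPKM filter (all genes 1.73%) and 2.976% for sites absent from the RWPE1+mAKT list. RWPE1-only sites at lower genes were 1.889% with a pseudocount of 0.1 (all genes 1.81%). ETS sequences were at 11.94% of ERG-only sites over the whole peak and 5.334% from all peaks. AP-1 sequences were at 33.29%, 17.92% and, for sites absent from the RWPE1+mAKT list, 18.34%. The nearest protein-coding gene by GENCODE, also chosen after seeing the data, gave 2.21% and 1.07%. The cause of these moves was not tested, apart from the number of peaks or bases each setting admits.

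No paired analysis was possible because the FPKM is pooled over the numbered libraries and each line has 1 ATAC library. For the same reason no library was left out. The depth of the libraries limits the lists, and an absent peak is one that was not called.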
